A study of Drosophila melanogaster with 18 samples.

Results

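The 33 genes described here are cyclins, cyclin-dependent kinases, E2F and Rb factors, replication licensing genes, genes of DNA synthesis, and mitotic kinases and checkpoint genes of Drosophila melanogaster. They were taken by symbol from a table of read counts for 17529 genes, all 33 were found there by their FlyBase identifier, and all 33 had enough counts to be tested. RNA was sequenced from eye-antennal discs of larvae in their last instar (sheets of cells that give rise to the eye, antenna and head of the fly) in 18 libraries, 3 for each of 6 genotypes. The mutant genotypes were homozygous on the right arm of chromosome 3 for scrib1 (scrib), fosKM (fos), CtBP87De-10 (CtBP), scrib1 with fosKM (scrib fos), or scrib1 with CtBP87De-10 (CtBP scrib), and the control carried the FRT82B arm with none of these alleles. All genotypes, control included, had that arm over an FRT82B arm with a cell-lethal mutation, with a flippase driven in the eye (eyFLP). Recombination then removes cells homozygous for the lethal arm, leaving discs made largely of cells with 2 copies of the tested arm. Per the labels, larvae were reared at 25°C, and RNA from cells sorted on different days was pooled into 3 samples of 180 to 330 ng per genotype. How cells were gated and whether samples came from separate crosses is not stated in any source used here, and p-values cover the spread among these samples alone.

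A dividing disc cell passes from G1 to S phase when Cyclin E with Cdk2 is active and E2F1 with its partner Dp turns on replication genes, steps that the Rb protein Rbf and the Cdk inhibitor Dacapo (dap) hold back. Licensing factors load the Mcm helicase on origins before S phase, and Cdk1 with Cyclins A, B and B3 drives mitosis once the phosphatase String (stg) activates it. In the larval eye disc, cells divide without pattern ahead of the morphogenetic furrow, arrest in G1 within it, and either pass through 1 more division or differentiate behind it. The gene scrib encodes a polarity protein whose loss lets disc cells overgrow, fos (kay) encodes a transcription factor downstream of the JNK pathway, and CtBP encodes a transcriptional co-repressor.

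Library totals ran from 22294940 to 35510575 counts. The transcript of CtBP stood at 279 to 295 CPM (counts scaled to a library of 1000000) in CtBP and 332 to 361 in CtBP scrib, against 809 to 838 CPM in control. That of kay was at 91.5 to 111 CPM in fos and 119 to 151 in scrib fos, against 84.1 to 134 in control. That of scrib was at 367 to 465 CPM in scrib, 427 to 449 in scrib fos and 473 to 491 in CtBP scrib, against 463 to 486 in control. Of these only scrib in scrib fos did not overlap with control, and the levels of kay and scrib do not check the labels. The retinal gene eya was detected in every genotype, at 103 to 119 CPM in scrib, 352 to 354 in fos, 329 to 359 in CtBP, 216 to 222 in scrib fos and 46.3 to 58.2 in CtBP scrib, against 352 to 364 in control. The share of Hsp70 counts was highest in replicate 1 of all 6 genotypes (0.0054% to 0.744% over all libraries). The 33 genes together took 0.510% to 0.530% of counts in the scrib fos libraries, above the 0.420% to 0.474% of the other 15 libraries.

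All 12 licensing and DNA synthesis genes rose in each of the 3 genotypes that lack scrib, and in scrib fos 4 of the 5 mitotic kinase and checkpoint genes rose as well. In scrib, 20 of the 33 genes were higher than in control and 6 lower, where 53.5% of the 10834 tested genes were called, 27.8% higher and 25.7% lower. In scrib fos, 25 were higher and 4 lower, beside 46.6% of all tested genes called, 22.1% higher and 24.5% lower. In CtBP scrib, 18 were higher and 6 lower, beside 59.4% called, 31.1% higher and 28.3% lower. In fos 0 of the 33 were called, beside 0.997% of all tested genes (0.258% higher, 0.738% lower), and in CtBP 1 was called higher, beside 14.5% of all tested genes (758 higher and 808, or 7.46%, lower). Changes, here and in parentheses after a gene's name, are log2 fold changes from edgeR's quasi-likelihood test, and a gene was called, or said to rise or fall, at a Benjamini-Hochberg adjusted p below 0.05 over all tested genes. The changes were small: over the 33 genes they ran from -0.58 to 0.61 on the log2 scale in scrib, from -0.48 to 0.68 in scrib fos and from -0.65 to 0.66 in CtBP scrib. The median was 0.18 in scrib, 0.27 in scrib fos and 0.14 in CtBP scrib, while the median of all tested genes lay between -0.02 and 0.01. These comparisons share their control libraries.

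**Figure D1:**
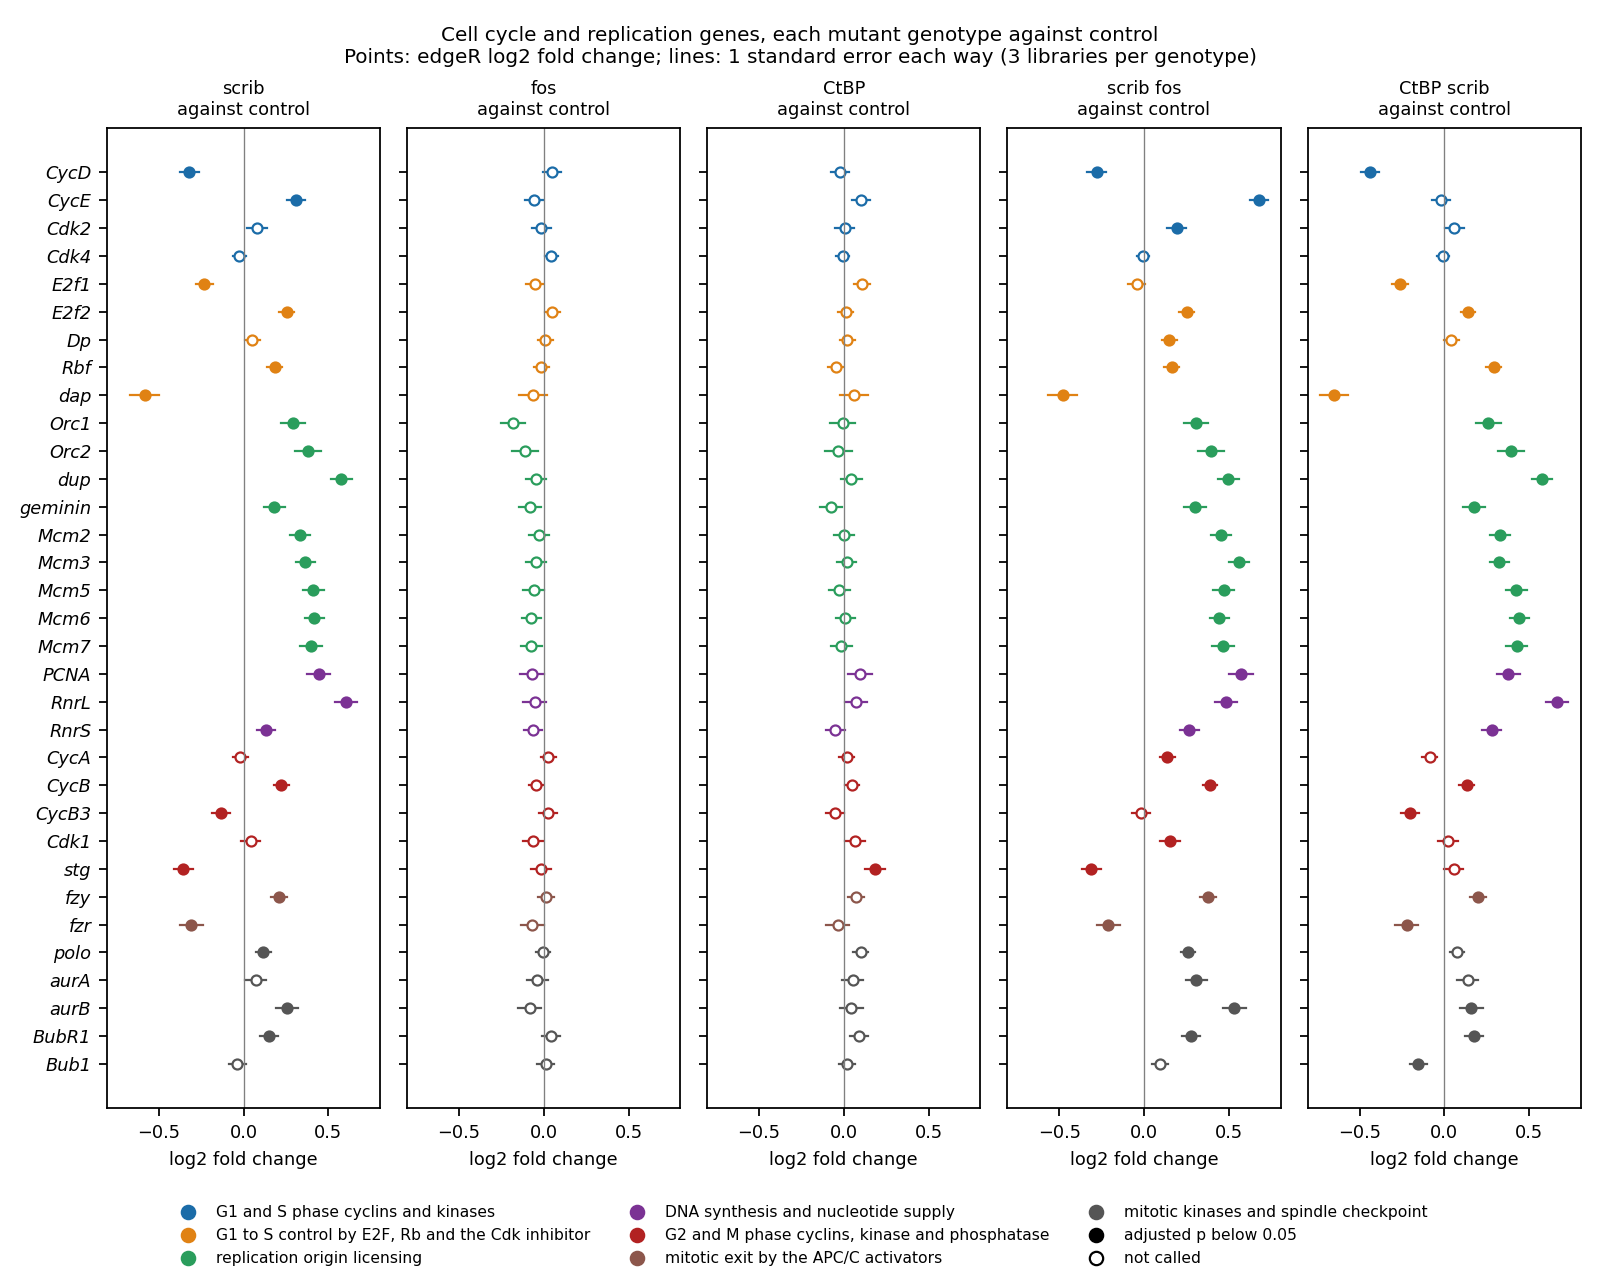
Log2 fold change of the 33 genes (rows, coloured by role) in each mutant genotype against control, with 1 standard error each way and 3 libraries per genotype; filled points passed an adjusted p of 0.05 in edgeR. The 12 licensing and DNA synthesis genes lie right of 0 in scrib, scrib fos and CtBP scrib, the genes CycD, dap and fzr lie left of 0 there, and the fos and CtBP panels stay within -0.18 and 0.18.

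Some markers of other cell types differed along with these genes. All 14 markers of differentiating eye cells fell in scrib, scrib fos and CtBP scrib (median changes -2.39, -1.55 and -3.24). Their summed level was 739.6 to 894 CPM in scrib, 761 to 867 in scrib fos and 591 to 622 in CtBP scrib, against 2069 to 2108 in control. It was 2029 to 2142 CPM in fos and 1623 to 1917 in CtBP. Of 11 blood cell markers, 7 fell in scrib, 10 fell and 1 rose in scrib fos, and 9 fell in CtBP scrib. Their median change was -0.83, -3.67 and -1.31 in these genotypes. The sum of the blood cell markers was 533 to 627 CPM in scrib, 439.9 to 468 in scrib fos and 437 to 457 in CtBP scrib, against 679 to 824 in control. Of 7 glial markers, 2 rose and 2 fell in scrib, 0 rose and 4 fell in scrib fos, and 2 rose and 2 fell in CtBP scrib. Of 9 muscle and myoblast markers, 2 rose and 3 fell in scrib, 0 rose and 7 fell in scrib fos, and 3 rose and 3 fell in CtBP scrib. Of 12 heat shock genes, 1 rose and 2 fell in scrib, 1 rose and 1 fell in scrib fos, and 1 rose and 3 fell in CtBP scrib. No marker of these lists was at 0 in any genotype. In sorted cells measured in bulk, a change in the share of dividing cells and a change in RNA per cell cannot be told apart, and the part that these markers play in the results was not tested.

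The licensing genes rose together in the genotypes that lack scrib. All 9 licensing genes were called higher in scrib (median 0.38), in scrib fos (0.45) and in CtBP scrib (0.39), and none was called in fos or CtBP by edgeR or DESeq2. In scrib and CtBP scrib the leading gene was dup, the fly Cdt1, which loads the Mcm helicase on origins. Its level was 95.2, 94.2 and 92.3 CPM in scrib, 87.9, 88.5 and 90.1 CPM in scrib fos, 91.6, 98.1 and 91.5 CPM in CtBP scrib, against 57.8, 65.6 and 65.5 CPM in control. The libraries of each of these genotypes lay above all 3 control libraries, and the 6 fos and CtBP libraries ran from 55.2 to 69.3 CPM, which overlapped control. The change against control was 0.58 in scrib (SE 0.06, adjusted p = 7.38e-08), 0.50 in scrib fos (adjusted p = 1.14e-06) and 0.57 in CtBP scrib (adjusted p = 5.57e-08).

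Mcm3, a subunit of the replicative helicase, had 158, 150.0 and 158 CPM in scrib, 169, 171 and 194 CPM in scrib fos, 151, 156 and 146 CPM in CtBP scrib, against 111, 125 and 127 CPM in control, with no overlap with control in any of the 3 genotypes. Its change was 0.36, 0.56 and 0.32 in scrib, scrib fos and CtBP scrib, and scrib fos replicate 3 was its highest library. For Mcm5, another subunit, the levels were 126, 128 and 134 CPM in scrib, 134, 134 and 135 CPM in scrib fos, 131, 131 and 129 CPM in CtBP scrib, against 88.4, 98.6 and 105 CPM in control. The 3 genotypes stood at about the same height, at 0.41, 0.47 and 0.42 on the log2 scale, all above control without overlap. The other subunits moved by a like amount in scrib, Mcm2 by 0.33, Mcm6 by 0.42 and Mcm7 by 0.40. The origin recognition genes Orc1 (0.29) and Orc2 (0.38) rose as well. In CtBP scrib the Orc1 call was lost without replicate 1 of every genotype (adjusted p = 0.0532).

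The smallest licensing change in scrib was that of geminin, the inhibitor of Dup, at 114 ± 3.33 CPM in scrib, 124 ± 14.1 in scrib fos and 114 ± 0.837 in CtBP scrib, against 101 ± 4.26 in control (SD, n = 3 each). Its call in scrib (adjusted p = 0.0226) was lost without control replicate 1 (0.0714) or 2 (0.0502) or scrib replicate 2 (0.0540) or 3 (0.0561). In CtBP scrib its call (adjusted p = 0.0249) was lost without control replicate 1 (0.0808) or 2 (0.0557) or CtBP scrib replicate 1 (0.0580) or 2 (0.0527). That call was also lost without replicate 1 of every genotype (0.0660). Of the exon sequence of Mcm7, 81.7% lies under the antisense gene asRNA:CR45871, whose count rose by 0.39 on the log2 scale in scrib. No source used here states whether counting used strand, and without it the reads of both genes cannot be told apart.

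The genes of DNA synthesis and nucleotide supply rose with licensing. RnrL, the large subunit of ribonucleotide reductase, which makes deoxynucleotides, had 239, 239.8 and 249 CPM in scrib, 227, 223 and 218 CPM in scrib fos, 251, 258 and 249 CPM in CtBP scrib, against 147, 160.4 and 171 CPM in control. No library of scrib, scrib fos or CtBP scrib overlapped with control, and the changes were 0.61 (SE 0.07, adjusted p = 1.4e-07), 0.48 and 0.66. PCNA, the sliding clamp of DNA polymerase, was at 219, 221 and 238 CPM in scrib, 236, 241 and 265 CPM in scrib fos, 212, 222 and 214 CPM in CtBP scrib, against 149.9, 170.1 and 179 CPM in control. It changed by 0.44, 0.57 and 0.38 in scrib, scrib fos and CtBP scrib, again with no overlap with control. The small reductase subunit RnrS moved less than the large one, with 130.1, 137 and 141 CPM in scrib, 146, 149 and 152 CPM in scrib fos, 151, 152 and 148 CPM in CtBP scrib, against 114, 126 and 132 CPM in control. Here scrib overlapped with control and the double mutants did not. Its change of 0.13 in scrib (adjusted p = 0.0412) was lost without control replicate 1 (0.198), scrib replicate 2 (0.0802) or scrib replicate 3 (0.118), by DESeq2 (0.0649) and with the replicate number as a block (0.0526), while those of 0.27 in scrib fos and 0.28 in CtBP scrib kept their calls under every setting tried.

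Control replicate 1 was the lowest control library for 25 of the 33 genes, among them 11 of the 12 licensing and DNA synthesis genes. It held the highest Hsp70 share of all libraries (0.744%). Without it, 10 of the 12 were called higher in scrib (changes from 0.09 to 0.56), 12 in scrib fos (0.23 to 0.52) and 11 in CtBP scrib (0.16 to 0.61).

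**Figure D2:**
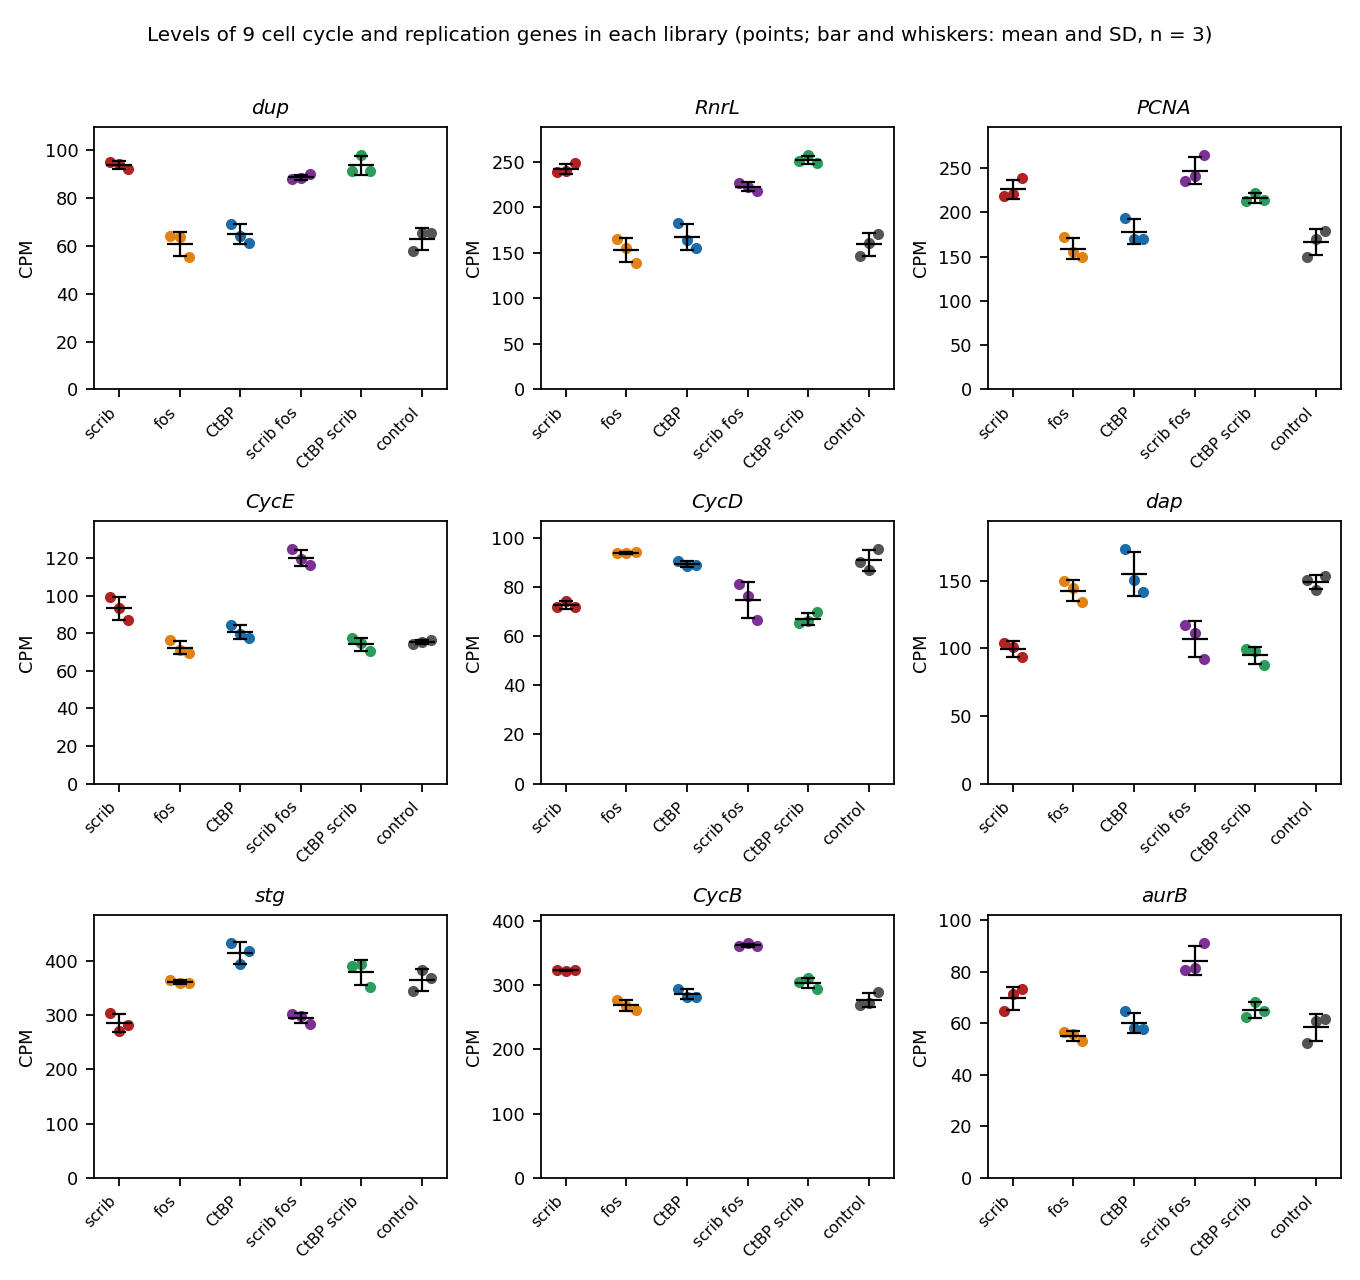
CPM of 9 genes in each library (points), with the mean and SD of 3 libraries per genotype, and control at the right of each panel. The genes dup, RnrL and PCNA are higher in the 3 genotypes that lack scrib, CycE is highest in scrib fos (116 to 125 CPM) and at the control level in CtBP scrib, CycD and dap are lower in the 3 genotypes, and stg is lower in scrib and scrib fos.

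The same direction held among replication genes outside the 33. Of 36 further replication genes tested, 31 were called higher and 0 lower in scrib, 31 higher and 1 lower in scrib fos, and 28 higher and 1 lower in CtBP scrib. None was lower in scrib by DESeq2 either, and none had an unadjusted p below 0.05 in that direction. Their median change was 0.31, 0.32 and 0.35. The shares called higher were 86.1%, 86.1% and 77.8%, beside 27.8%, 22.1% and 31.1% of all tested genes. The smallest p-values in scrib were those of the primase subunit gene Prim2 (0.60; 31.2 ± 1.74 CPM in scrib against 20.6 ± 1.08 in control), the chromatin assembly factor gene Caf1-180 (0.52; 119.8 ± 4.34 CPM in scrib against 83.5 ± 5.13 in control) and the DNA polymerase alpha subunit gene PolA2 (0.57; 29.9 ± 0.827 CPM in scrib against 20.2 ± 1.76 in control; SD, n = 3 each). In fos the median of this list was -0.03, with none called by edgeR or DESeq2 and 2 lower at an unadjusted p below 0.05, and in CtBP it was 0.03 with 1 called each way.

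The G1 regulators split, and Cyclin E split by genotype. CycE, the cyclin that starts S phase with Cdk2, had 99.4, 93.3 and 86.9 CPM in scrib, 125, 119.6 and 116 CPM in scrib fos, 77.4, 74.8 and 70.4 CPM in CtBP scrib, against 74.0, 75.1 and 76.2 CPM in control. The scrib and scrib fos libraries lay above control, the scrib fos libraries also lay above those of scrib, and CtBP scrib overlapped with control. Its change was 0.31 in scrib (SE 0.05, adjusted p = 4.54e-05), 0.68 in scrib fos (adjusted p = 2.37e-09) and -0.02 in CtBP scrib (adjusted p = 0.798, 95% interval -0.13 to 0.10). The fos and CtBP single mutants had 76.1, 70.8 and 69.7 CPM in fos and 84.4, 79.8 and 77.2 CPM in CtBP, and neither was called against control (adjusted p = 0.982 and 0.249).

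CycD, the cyclin partner of Cdk4 in growth and G1 progress, went the other way, with 71.9, 74.4 and 71.6 CPM in scrib, 81.1, 76.4 and 66.6 CPM in scrib fos, 65.3, 65.9 and 69.6 CPM in CtBP scrib, against 90.0, 86.7 and 95.3 CPM in control. All 9 libraries that lack scrib lay below the control libraries, and the changes were -0.32, -0.28 and -0.44, each called. The kinases moved little: Cdk2 had 56.9, 60.2 and 59.3 CPM in scrib, 65.7, 63.2 and 62.1 CPM in scrib fos, 55.8, 58.7 and 59.4 CPM in CtBP scrib, against 51.5, 56.3 and 59.3 CPM in control. Only the change of Cdk2 in scrib fos (0.19, adjusted p = 0.00815) passed the threshold among its comparisons with control, and it did not pass without replicate 1 of every genotype (0.0783). Of the Cdk2 exons, 43.9% lie under CG17267 on the other strand. Cdk4 was not called in any comparison, with changes of -0.02, -0.01 and -0.01 and 95% intervals within -0.10 and 0.07 in these genotypes.

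The Cdk inhibitor gene dap, which is expressed in cells that leave the cycle, fell most among the 33. It stood at 104, 101 and 93.3 CPM in scrib, 117, 111 and 92.2 CPM in scrib fos, 99.3, 97.9 and 87.9 CPM in CtBP scrib, against 150.3, 144 and 153 CPM in control. Every library that lacks scrib lay below every control library, and the change was -0.58 in scrib (SE 0.08, adjusted p = 1.13e-05), -0.48 in scrib fos and -0.65 in CtBP scrib. The fos and CtBP libraries held 134 to 173 CPM and overlapped with control. This fall stood beside that of the 14 markers of differentiating eye cells, and the part of these cells in it was not tested.

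The activating factor E2f1 had 294, 266 and 257 CPM in scrib, 314, 303 and 312 CPM in scrib fos, 264, 270.4 and 266 CPM in CtBP scrib, against 308, 327 and 325 CPM in control. It fell in scrib (-0.23, adjusted p = 0.000505) and in CtBP scrib (-0.26, adjusted p = 0.000117), without overlap with control, and was not called in scrib fos (-0.04, adjusted p = 0.478). Rbf, the Rb protein that restrains E2F, rose, with 133, 134 and 123 CPM in scrib, 125, 126 and 134 CPM in scrib fos, 134, 145 and 141 CPM in CtBP scrib, against 115, 114 and 114 CPM in control. Its changes were 0.18, 0.16 and 0.29, each called and without overlap. The repressive factor E2f2, which shares 19.9% of its exon sequence with Mpp6 on the other strand, rose by 0.25, 0.25 and 0.14, and in CtBP scrib it was not called without replicate 1 of every genotype (0.0581) or with a filter of 5 CPM in 3 libraries (0.0839). Dp, the partner of both E2F proteins, was called only in scrib fos (0.15; not without replicate 1 of every genotype, 0.0618).

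Mitotic entry genes did not move as a block. The phosphatase gene stg had 304, 272 and 282 CPM in scrib, 302, 298 and 284 CPM in scrib fos, 392, 395 and 353 CPM in CtBP scrib, against 344, 383 and 369 CPM in control. It fell in scrib (-0.36, SE 0.06, adjusted p = 2.3e-05) and scrib fos (-0.31, adjusted p = 0.000152), both below control without overlap, and in CtBP scrib it overlapped with control (0.05, adjusted p = 0.430). In the single mutants it was at 365, 360.1 and 359 CPM in fos and 433, 394 and 418 CPM in CtBP. The CtBP libraries lay above those of control (0.18, adjusted p = 0.0331), a call lost with no filter on low counts (0.0709), with the stricter filter (0.0518), with only CtBP and control in the fit (0.0570), or without control replicate 1 (0.205) or 3 (0.0697) or CtBP replicate 1 (0.150) or 3 (0.101).

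Among the mitotic cyclins, CycB had 325, 323 and 324 CPM in scrib, 362, 366 and 361 CPM in scrib fos, 305, 311 and 295 CPM in CtBP scrib, against 269, 273 and 289.9 CPM in control. It rose in scrib (0.22), scrib fos (0.39) and CtBP scrib (0.13, not called without replicate 1 of every genotype, 0.0651), each time without overlap with control. CycB3 had 106, 105 and 104 CPM in scrib, 111, 113 and 117 CPM in scrib fos, 95.0, 105 and 99.7 CPM in CtBP scrib, against 104, 117 and 124 CPM in control, and every genotype overlapped with control. It fell in CtBP scrib (-0.20, adjusted p = 0.00256) and in scrib (-0.13, adjusted p = 0.0438). The scrib call was lost without control replicate 2 (0.169) or 3 (0.374) or any 1 of the scrib libraries (0.0980, 0.124 and 0.128). With all genotypes in the edgeR fit, CycA and Cdk1 were called against control in scrib fos, at 0.14 and 0.15, and in no other genotype. In CtBP scrib, CycA (-0.09) passed as lower by DESeq2 (adjusted p = 0.0148), with the 5 CPM filter (0.0104) and with only these genotypes in the fit (0.0249). In scrib fos the CycA call was lost without scrib fos replicate 1 (0.0525), and that of Cdk1 without control replicate 1 (0.115) or 2 (0.0565) or scrib fos replicate 1 (0.0953) or 2 (0.119), with the 5 CPM filter (0.0927) and with only these genotypes (0.0510).

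The activators of the anaphase-promoting complex (APC/C), which destroys mitotic cyclins, moved in opposite directions. The mitotic activator fzy, the fly Cdc20, had 128, 128 and 139 CPM in scrib, 146, 149.6 and 149 CPM in scrib fos, 129, 132 and 132 CPM in CtBP scrib, against 109, 116 and 117 CPM in control, and rose by 0.21, 0.38 and 0.20 without overlap. The activator fzr, the fly Cdh1, which keeps the complex active in G1 and in cells that stop dividing, had 29.4, 28.6 and 26.8 CPM in scrib, 32.4, 28.9 and 29.4 CPM in scrib fos, 32.7, 29.0 and 28.3 CPM in CtBP scrib, against 34.7, 35.0 and 35.3 CPM in control. It fell by 0.31 on the log2 scale in scrib (adjusted p = 0.000683), 0.21 in scrib fos and 0.22 in CtBP scrib. The scrib fos call (adjusted p = 0.0136) was lost without control replicate 3 (0.0567) or scrib fos replicate 2 (0.0852) or 3 (0.0707), and the CtBP scrib call (0.00829) without CtBP scrib replicate 3 (0.0549).

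Of the mitotic kinases and checkpoint genes, 3 of 5 rose in scrib, 4 of 5 in scrib fos, and 2 rose and 1 fell in CtBP scrib. Their median change was 0.12 in scrib, 0.27 in scrib fos and 0.14 in CtBP scrib. aurB, the kinase of the chromosomal passenger complex, had 64.5, 71.3 and 73.1 CPM in scrib, 80.5, 81.4 and 91.0 CPM in scrib fos, 62.3, 68.1 and 64.8 CPM in CtBP scrib, against 52.4, 60.9 and 61.7 CPM in control. It rose by 0.26 in scrib and 0.53 in scrib fos (adjusted p = 0.00321 and 2.12e-06), and the scrib fos libraries were the highest of all. In CtBP scrib (0.16, adjusted p = 0.0499) the call was lost without control replicate 1 (0.267) or CtBP scrib replicate 2 (0.161) or 3 (0.0845) and by DESeq2 (0.0894). The centrosomal kinase aurA had 37.5, 36.6 and 40.0 CPM in scrib, 43.7, 45.5 and 45.2 CPM in scrib fos, 38.8, 40.3 and 40.4 CPM in CtBP scrib, against 34.5, 35.7 and 38.3 CPM in control. It was called against control in scrib fos (0.31, adjusted p = 0.000322), where no library overlapped with control. In CtBP scrib (0.14) it was not called, but passed without control replicate 3 (adjusted p = 0.0217) and with only these genotypes in the fit (0.0416).

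The checkpoint kinase BubR1 had 130.3, 123 and 129.7 CPM in scrib, 144, 142 and 132 CPM in scrib fos, 135, 132 and 124 CPM in CtBP scrib, against 107, 113 and 125 CPM in control. The scrib fos libraries lay above control (0.27, adjusted p = 0.000312), and those of scrib (0.15) and CtBP scrib (0.18) overlapped with it though both were called. The scrib call (adjusted p = 0.0259) was lost without control replicate 1 (0.117) or 2 (0.0592) or scrib replicate 3 (0.0547), and the CtBP scrib call (0.00831) without CtBP scrib replicate 1 (0.0517). Both were lost without replicate 1 of every genotype (0.268 in scrib and 0.172 in CtBP scrib). With only scrib and control in the fit the scrib call was lost too (0.0690). The kinase polo, needed for spindle and cytokinesis, rose by 0.26 in scrib fos, and by 0.12 in scrib (adjusted p = 0.0282). The scrib call of polo was lost without control replicate 1 (0.0826) or 2 (0.0623), scrib replicate 3 (0.0628) or replicate 1 of every genotype (0.0782). It was also lost with DESeq2's size factors (0.0505), without ribosomal RNA genes (0.0523) and with only scrib and control in the fit (0.105). The checkpoint kinase Bub1 fell in CtBP scrib (-0.15, adjusted p = 0.0102), but not without CtBP scrib replicate 3 (0.114).

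To ask what fos, a JNK effector, contributes, scrib fos was compared with scrib. Of the 33 genes, 10 were called higher in scrib fos than in scrib and 0 lower, where 37.8% of all tested genes were called, 17.6% higher and 20.2% lower. The lean of all tested genes turned with the scaling. It was 1905 higher and 2190 lower in this fit, and 2225 and 1975 in edgeR with DESeq2's size factors. Of the 33 genes, DESeq2 called 14 higher and 0 lower, and none was lower at an unadjusted p below 0.05. With only these 2 genotypes in the fit, 6 were called higher. CycE led (0.37, SE 0.05, adjusted p = 1.03e-05), with no overlap between the groups. The others were aurB (0.28), aurA (0.24), E2f1 (0.19), Mcm3 (0.19), fzy (0.17), CycB (0.16), CycA (0.16), polo (0.14) and Bub1 (0.13). So 7 of the 10 belonged to the G2, mitotic and APC/C groups, which hold 12 of the 33 genes. Of these, CycA (adjusted p = 0.0725), polo (0.0908) and Bub1 (0.0642) were not called with only these 2 genotypes in the fit. E2f1 (0.0505) was not called there either. The genes that DESeq2 added were Dp (0.0108), RnrS (0.0172), CycB3 (0.0443) and BubR1 (0.0257). The Mcm3 call (adjusted p = 0.0103) was lost without scrib fos replicate 3 (0.0643). The Bub1 call (0.0371) was lost without scrib fos replicate 1 (0.0733) or 3 (0.0788) or scrib replicate 2 (0.0526) or 3 (0.0917).

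The licensing genes other than Mcm3 were not called between scrib fos and scrib. For dup the 95% interval was -0.21 to 0.05, for Mcm5 -0.08 to 0.19, for Orc2 -0.15 to 0.18, for Mcm2 -0.01 to 0.25 and for geminin -0.02 to 0.26. Mcm2 passed as higher in scrib fos with no filter (adjusted p = 0.0486), without ribosomal RNA genes (0.0473) and without replicate 1 of every genotype (0.0244), and geminin without scrib fos replicate 1 (0.0498). Blood cell markers fell in this comparison, 9 of 11, with a median change of -2.94. Their sums, on which the most abundant markers weigh most, were 439.9 to 468 CPM in scrib fos, against 533 to 627 in scrib. Of the markers of differentiating eye cells, 10 of 14 rose and 1 fell, with a median change of 0.61. The sums of these markers overlapped, at 761 to 867 CPM in scrib fos, against 739.6 to 894 in scrib. The part of both sets of markers in the changes of the 33 genes was not tested.

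Loss of CtBP in scrib discs moved 2 of the 33 genes, in opposite directions, beside 18.7% of all tested genes called, 9.57% higher and 9.14% lower. CycE was lower in CtBP scrib than in scrib (-0.33, SE 0.05, adjusted p = 9.81e-05), and stg was higher (0.41, SE 0.06, adjusted p = 1.68e-05). Neither gene overlapped between these genotypes, and both calls held without any 1 library and under every other setting. The medians of the licensing and DNA synthesis groups were 0.00 and 0.06. The 95% interval was -0.13 to 0.13 for dup, -0.22 to 0.09 for PCNA and -0.25 to 0.12 for dap. Markers of differentiating eye cells fell further, 11 of 14, at sums of 591 to 622 CPM in CtBP scrib, against 739.6 to 894 in scrib, and their part was not tested.

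**Figure D3:**
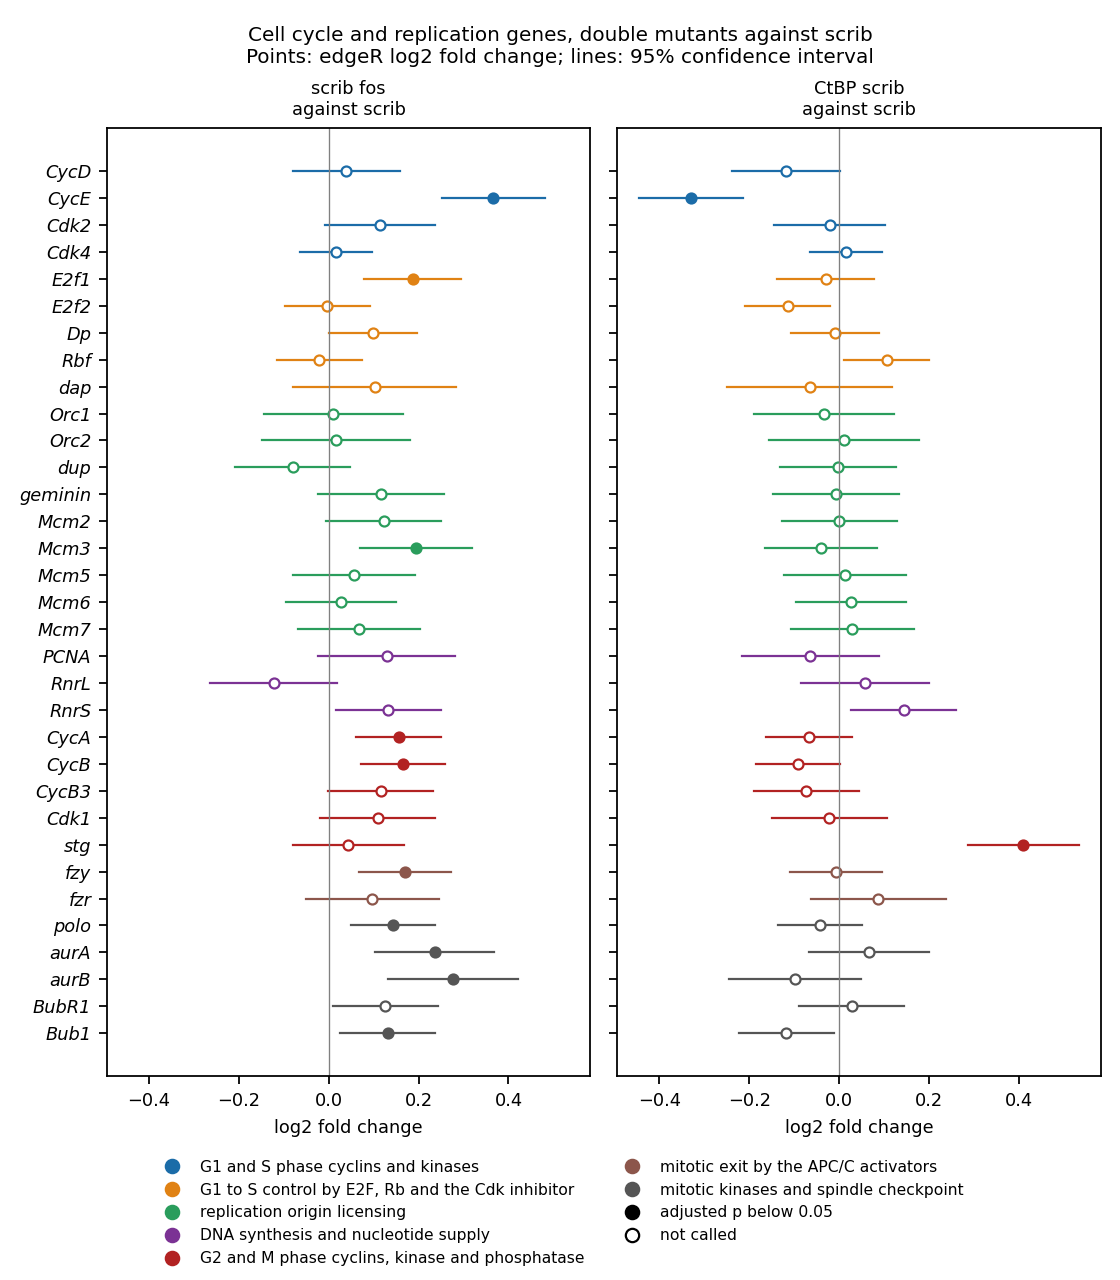
Log2 fold change of the 33 genes in scrib fos against scrib (left) and CtBP scrib against scrib (right), with 95% confidence intervals; filled points passed an adjusted p of 0.05 in edgeR. At left 10 genes are called, all to the right of 0, with CycE at 0.37; at right only CycE (-0.33) and stg (0.41) are called.

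Whether the effect of scrib loss differed with fos or CtBP was tested as an interaction. With fos, 6 of the 33 genes had a called interaction, all with a larger rise or smaller fall in the fos mutant background, beside 23.2% of all tested genes called, 10.6% in that direction and 12.7% in the other. They were CycE (0.42, SE 0.07, adjusted p = 0.000251), aurB (0.36), aurA (0.27), Mcm3 (0.24), E2f1 (0.24) and CycB (0.21). DESeq2 called 10 in that direction, adding RnrS (adjusted p = 0.0305), CycA (0.0214), fzy (0.0413) and polo (0.00517). Without replicate 1 of every genotype edgeR called 12. It then added geminin (0.0403), Mcm2 (0.0148), Mcm5 (0.0250), Mcm7 (0.0305), PCNA (0.00669) and RnrS (0.0134), all of the licensing and DNA synthesis groups. In edgeR with DESeq2's size factors, 1298 of all tested genes were called in that direction and 1234 in the other. The aurA interaction was lost without control replicate 3 (0.0779), fos replicate 3 (0.0793), scrib fos replicate 2 (0.0551) or scrib replicate 1 (0.0508) or 2 (0.0671). That of Mcm3 was lost without control replicate 2 (0.0873) or 3 (0.0937), fos replicate 2 (0.0656) or 3 (0.0951), scrib fos replicate 3 (0.0878) or scrib replicate 2 (0.0849). With CtBP, CycE alone was called (-0.43, SE 0.07, adjusted p = 0.000497), beside 10.5% of all tested genes called, 5.06% in that direction and 5.43% in the other. The interaction of stg with CtBP missed the threshold (0.23, adjusted p = 0.0816). It passed with DESeq2 (0.0334) and without control replicate 1 (0.0321), CtBP scrib replicate 3 (0.0332), scrib replicate 1 (0.0280) or replicate 1 of every genotype (0.0158). The interaction of RnrS with CtBP passed as positive without replicate 1 of control (0.0320), of CtBP (0.0234) or of every genotype (0.0190).

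Further cell cycle genes were counted in a list of 28 G1, S and G2 regulators and a list of 45 mitotic genes. Of the regulators, 7 rose and 4 fell in scrib, 12 rose and 1 fell in scrib fos, and 8 rose and 4 fell in CtBP scrib. In scrib and CtBP scrib the shares that rose, 25.0% and 28.6%, lay near those of all tested genes, 27.8% and 31.1%. In scrib fos 42.9% rose, beside 22.1% of all tested genes. Those with the smallest p in scrib were Skp2, an F-box protein (0.53; 69.8 ± 1.94 CPM in scrib against 48.2 ± 1.86 in control), and grp, the fly Chk1 (-0.40; 243 ± 3.86 CPM in scrib against 319.8 ± 5.07 in control; SD, n = 3 each). The Myb-MuvB subunit gene mip120 (0.22) and lok, the fly Chk2 (0.21), rose too. ago, an F-box protein that marks Cyclin E for destruction (-0.36), and Rca1, an inhibitor of the APC/C (-0.25), fell. Against scrib, CtBP scrib had a lower grp (-0.28; 201 ± 2.33 CPM in CtBP scrib against 243 ± 3.86 in scrib) and a higher Cks85A (0.24), a Cdk-binding subunit.

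Of the 45 mitotic genes, 17 rose and 3 fell in scrib, 28 rose and 1 fell in scrib fos, and 16 rose and 6 fell in CtBP scrib. The shares that rose were 37.8% in scrib, 62.2% in scrib fos and 35.6% in CtBP scrib, beside 27.8%, 22.1% and 31.1% of all tested genes. Their median change was 0.07, 0.20 and 0.05. In scrib the smallest p-values were those of cal1, which loads the centromeric histone (0.60; 114 ± 6.11 CPM in scrib against 75.5 ± 3.99 in control), the kinesin gene Klp61F (0.38) and the passenger complex gene borr (0.33). The 3 that fell were the APC/C subunit gene lmgA (-0.16), the condensin gene barr (-0.13) and fwd (-0.17). Set directly against scrib, scrib fos had 16 of the 45 mitotic genes higher and 1 lower, and 2 of the 36 replication genes higher and 3 lower. These were 35.6% and 2.22% of the mitotic genes and 5.56% and 8.33% of the replication genes. Of all tested genes, 17.6% were higher and 20.2% lower there in the reported fit. In CtBP scrib against scrib, cal1 was higher (0.21) and the kinetochore gene Spc25 (-0.29) and the separase gene Sse (-0.26) were lower. Of the replication genes, Ts, thymidylate synthase, was higher (0.26, adjusted p = 0.0490).

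**Figure D4:**
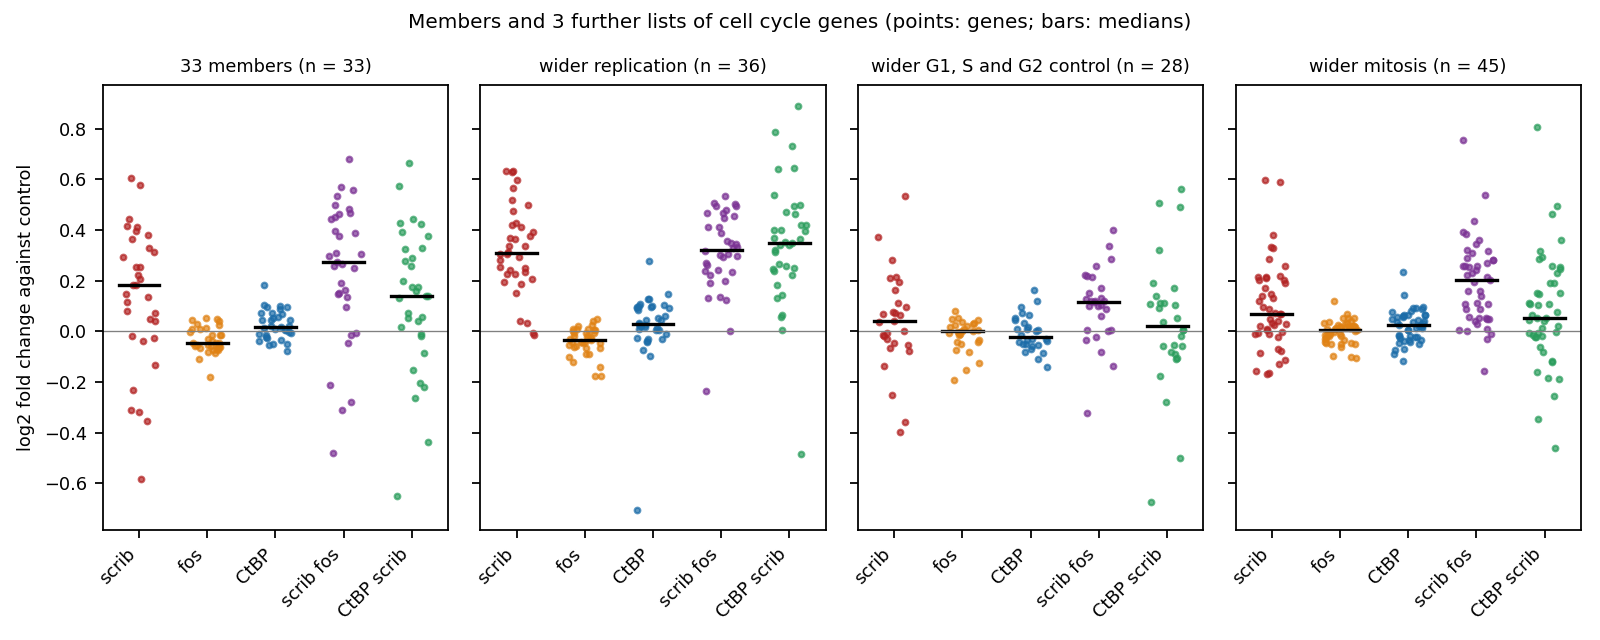
Log2 fold change against control of the 33 genes and of 3 further lists (points: genes; bars: medians) in each mutant genotype. The replication list has medians of 0.31, 0.32 and 0.35 in scrib, scrib fos and CtBP scrib, and the mitosis list has 0.07, 0.20 and 0.05.

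Few of the 33 genes were called in the single mutants. In fos 0 of 33 were called by edgeR or DESeq2, 1 had an unadjusted p below 0.05 (lower in fos), and 95% intervals over the 33 genes lay between -0.34 and 0.17 on the log2 scale. The lowest was Orc1, at 26.7, 24.6 and 22.6 CPM in fos, against 26.9, 27.6 and 29.3 CPM in control (-0.18, adjusted p = 0.461), where the groups did not overlap. In CtBP stg alone was called by edgeR, 1 gene was called by DESeq2, and the intervals lay between -0.22 and 0.31.

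Levels between genes were compared per length, in control, as CPM per 1000 bases of exon (RPKM). PCNA was highest at 155 ± 13.93 RPKM (SD, n = 3), above the overlapping ranges of stg (119 ± 6.50), Cdk1 (116 ± 5.24) and polo (115 ± 3.91). The inhibitor geminin (94.8 ± 4.02) stood above its target dup (20.1 ± 1.43), and CycD (37.0 ± 1.75) above CycE (14.9 ± 0.21). The helicase subunits lay between 38.8 ± 2.97 RPKM for Mcm2 and 57.1 ± 5.33 for Mcm7. Lowest were Bub1 (11.7 ± 0.05), Orc2 (10.5 ± 0.92) and Orc1 (8.87 ± 0.39). Of the 32 pairs of neighbours in this order, 18 had overlapping ranges.

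The tested chromosome arm 3R carries 8 of the 33 genes, among them stg (dm6 3R, 29251826 to 29255800), E2f1 (3R, 21620304 to 21660871) and CycB3 (3R, 24867934 to 24870816). In scrib, 3 of these 8 rose and 3 fell, against 17 higher and 3 lower among the 25 genes on other arms. Of all tested genes, 28.2% rose and 25.4% fell among the 2610 on 3R, against 27.7% and 25.8% among the 8162 elsewhere. For genes on 3R, an effect of the mutated gene and of another difference carried by the same arm cannot be told apart. CycE (2L, 15727581 to 15748150), dap (2R, 9712321 to 9716256) and dup (2R, 15376619 to 15380988) lie on chromosome 2.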

How the data were processed

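Read counts per gene were deposited by the authors as 1 table of whole numbers for 17529 genes and 18 libraries. The submitters' processing notes name Subread, featureCounts and edgeR and the build dm6, while no source used here states versions, settings or strand, and the libraries were TruSeq RNA per the labels. Totals were 22294940 to 35510575 counts a library. No column was left unused. The 33 genes and all lists were chosen with earlier results of these data known.

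From these counts, genes were kept by filterByExpr (10834 of 17529), scaled by TMM, and tested in edgeR 4.0.16 (R 4.3.3) with the quasi-likelihood test, 2-sided, in 1 fit over 18 libraries with a coefficient per genotype, 7 comparisons between genotypes and 2 interactions. P-values were adjusted by Benjamini-Hochberg over all tested genes in each comparison. CPM are counts per 1000000 of the scaled total. RPKM are CPM per 1000 bases of exon in Ensembl's annotation of the same assembly, and positions come from there. The interaction is the effect of scrib loss in the fos or CtBP mutant background minus that in its absence. The biological coefficient of variation was 8.88%, and 95% intervals used 12 residual degrees of freedom without prior information. Within genotypes, no 2 libraries differed by as little as sampling noise (chi-square of at least 4.20 per degree of freedom). The edgeR fit was tested on simulated counts for fos against control alone, with larger changes than most of those reported here. Interactions were not simulated. Deviations from the genotype means correlated at 0.12 to 0.14 in all 3 same-numbered pairs of a scrib and a control library. Between other numbers they correlated at -0.09 to -0.04. The replicate number was a block only in an alternative fit. For scrib against control the numbers may thus pair samples, but the reported fit did not use a pairing. That pairing comes from these correlations and is not stated in the labels. It held for 1 of the 15 pairs of genotypes.

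Values per library are given for up to 3 members of each role group with the largest called changes, which made 20 genes. In the 3 further lists, up to 3 genes each way with the smallest p in scrib against control and in CtBP scrib against scrib are named. Of the 113 genes in those lists 110 matched by symbol and 109 were tested. Orc1 in fos was named after its values were seen, and 1 gene that the rule names is not reported here. Alternatives were DESeq2 1.42.0 (Wald test, and its size factors in edgeR), no filter, a filter of 5 CPM in 3 libraries, the replicate number as a block, ribosomal RNA genes left out, only the compared genotypes, and each library left out. Promoter motifs were not analysed here.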

Additional observations from a re-analysis of the deposited data

Results flagged for a closer look

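The effect of scrib loss differed with fos for 6 of the 33 genes and with CtBP for 1, by the interaction term of the edgeR fit with adjustment over all tested genes. CycE had both. Its scrib effect was 0.42 higher on the log2 scale in the fos mutant background (adjusted p = 0.000251), with 125, 119.6 and 116 CPM in scrib fos and 76.1, 70.8 and 69.7 CPM in fos, beside 99.4, 93.3 and 86.9 CPM in scrib, against 74.0, 75.1 and 76.2 CPM in control. In the CtBP mutant background its scrib effect was -0.43 relative to that without CtBP loss (adjusted p = 0.000497), with 77.4, 74.8 and 70.4 CPM in CtBP scrib and 84.4, 79.8 and 77.2 CPM in CtBP.

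The other interactions with fos were 0.36 for aurB (adjusted p = 0.00840), 0.27 for aurA (0.0258), 0.24 for Mcm3 (0.0357), 0.24 for E2f1 (0.0160) and 0.21 for CycB (0.0152). For aurB the libraries had 80.5, 81.4 and 91.0 CPM in scrib fos and 56.6, 55.6 and 52.9 CPM in fos, beside 64.5, 71.3 and 73.1 CPM in scrib, against 52.4, 60.9 and 61.7 CPM in control. E2f1 had 314, 303 and 312 CPM in scrib fos and 313, 300.4 and 312 CPM in fos, beside 294, 266 and 257 CPM in scrib, against 308, 327 and 325 CPM in control. In the same interaction 8 of 14 markers of differentiating eye cells were called higher and 1 lower, beside 10.6% and 12.7% of all tested genes. Of 11 blood cell markers, 0 were called higher and 9 lower. The part of these cells in the interactions was not tested.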

How the results depend on the processing

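No fold change of the 33 genes past the threshold reversed under any alternative. Of the values for single genes, 4379 kept their side of the threshold, 65 passed it newly and 110 no longer passed it. Genes called in neither fit could change direction and still count among the 4379. Of the counts, 500 stayed within 1.5 times and 52 did not. Among counts of the 33 genes, the interaction of scrib and fos had 6 called higher, against 10 by DESeq2, 4 to 7 with 1 library left out and 12 without replicate 1 of every genotype. The count for scrib fos against scrib was 10, and 6 with only these genotypes in the fit (9 to 12 with 1 library left out). In CtBP against control, 1 was higher, and 0 with no filter, with the 5 CPM filter and with only these genotypes (0 to 1 with 1 library left out). In that comparison 0 were lower, also with 1 library left out, and 1 without replicate 1 of every genotype. CtBP scrib against scrib had 1 lower, 2 with the 5 CPM filter or without scrib replicate 1, and 1 to 2 with 1 library left out. The interaction of scrib and CtBP had 0 higher, 1 by DESeq2, 2 without replicate 1 of every genotype and 0 to 2 with 1 library left out (2 without control replicate 1, and 1 without CtBP replicate 1, CtBP scrib replicate 3 or scrib replicate 1). With 1 library left out, scrib had 16 to 20 higher and 5 to 6 lower, scrib fos 23 to 25 and 3 to 4, and CtBP scrib 16 to 19 and 4 to 6. Dropping replicate 1 of every genotype, 6 libraries in all, left 17 higher and 6 lower for scrib, 22 and 4 for scrib fos, and 12 and 6 for CtBP scrib.

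Among the 109 genes of the further lists, the interaction of scrib and fos had 8 higher, 17 with DESeq2's size factors, 18 with no filter, 16 with the 5 CPM filter, 17 without ribosomal RNA genes, 16 by DESeq2, and 5 to 15 with 1 library left out (15 without control replicate 1 or scrib replicate 3, 5 without control replicate 2). Scrib fos against scrib had 6 lower, 3 with no filter or without scrib replicate 3, 3 to 6 with 1 library left out and 8 without replicate 1 of every genotype. The interaction of scrib and CtBP had 3 lower, 1 with no filter, and 1 to 3 lower and 0 to 1 higher with 1 library left out (1 lower without replicate 1 of control or CtBP, CtBP scrib replicate 1 or 3, or scrib replicate 3; 1 higher without replicate 1 of control or scrib). Scrib fos against control had 3 lower, 5 with the 5 CPM filter and 1 to 3 with 1 library left out (1 without replicate 1 or 3 of control or 2 or 3 of scrib fos). With 1 library left out, the list counts were 2 to 4 higher (4 without CtBP replicate 1) and 1 lower in CtBP against control, 1 to 3 higher in CtBP scrib against scrib (3 with all libraries, 1 without CtBP scrib replicate 2 or scrib replicate 1), 4 to 7 lower in scrib against control (7, and 4 without control replicate 3 or scrib replicate 2) and 0 lower in fos against control. Without replicate 1 of every genotype, 2 were lower in CtBP and 1 in fos. The cause of these moves was not tested.

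Calls of polo, RnrS and CycB3 in scrib and of geminin, CycB and aurB in CtBP scrib were lost with no filter, and all of these but CycB3 with the 5 CPM filter. That filter also lost geminin (0.0632) and BubR1 (0.0965) in scrib, Cdk1 (0.0927) in scrib fos, and E2f2 (0.0839) and BubR1 (0.0595) in CtBP scrib (adjusted p). Of all tested genes, 108 were called in fos against control (28 higher, 80 lower), 71 without fos replicate 1 (23 and 48) and 57 without fos replicate 2 (16 and 41). The largest shift of the median of all genes from the reported fit was 0.0305 on the log2 scale (scrib fos against scrib, without ribosomal RNA genes). Outside scrib against control, no pair of genotypes had all its same-numbered libraries correlated over 0.1. The reported fit used no pairing in any comparison. Over all genotypes, 15 of 45 same-numbered pairs were over 0.1, and the own number correlated best in 46 of 90 cases, where 30 would be even among the numbers. With the replicate number as a block, 19 of the 33 genes were higher in scrib and 9 in scrib fos against scrib. The calls of RnrS in scrib (adjusted p = 0.0526) and Bub1 in scrib fos against scrib (0.0523) were lost, and no other call of the 33 genes changed.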
